A study of Mus musculus with 11 samples.

Results

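The 8 genes followed here encode receptors of neurotransmitters and peptide hormones, read in RNA from hormone-secreting cells of the mouse colon: Adra2a, Htr4, Agtr1a, Avpr1b, Sstr1, Sstr5, Chrm3 and Vipr1. They were chosen by name, as receptors for adrenaline, serotonin, angiotensin, vasopressin, somatostatin, acetylcholine and vasoactive intestinal peptide (VIP), and all 8 were found among the 49997 genes listed. All 11 libraries came from colons of ovariectomised female C57BL/6 mice aged 10 to 14 weeks. Libraries labelled L-cells, which release peptide YY and glucagon-like peptides, came from Cck-Cre;R26LSL-tdTomato mice taken 4 hours after estradiol benzoate (EB, an ester of estradiol; 3 libraries) or its sesame oil vehicle (2 libraries). Libraries labelled EC-cells, for the serotonin-releasing enterochromaffin cells, came from a line named ECFLTG given EB (4 libraries) or sesame oil (2 libraries), with no time of their own stated. In the first line tdTomato marks cells with a history of Cck activity, which is not limited to L cells. About 7000 cells were collected for each L-cell treatment group, and at least 500 for each EC-cell library. Whether the libraries of a group stand for different mice is not stated. The p-values below therefore reflect only how these samples spread, which may be technical.

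All 8 are G protein-coupled receptors. Receptors for serotonin of type 4 and for VIP couple to Gs and raise cyclic AMP, which promotes hormone release from endocrine cells. The alpha-2A adrenergic receptor and the somatostatin receptors couple to Gi and lower cyclic AMP, and somatostatin from neighbouring D cells restrains enteroendocrine secretion in this way. The angiotensin type 1, vasopressin V1b and muscarinic M3 receptors couple to Gq and raise intracellular calcium.

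Reads counted on genes numbered 27658579 to 31449447 per L-cell library and 4955808 to 10640921 per EC-cell library. Genes with at least 1 read numbered 25343 and 21773 in vehicle L cells and 30040, 23661 and 28126 in EB replicates 1 to 3. In EC cells they numbered 19859 and 15868 in vehicle and 17110, 16014, 30288 and 16555 in EB replicates 1 to 4. The values below are normalised counts, that is, reads divided by a size factor of the library, and each table was normalised on its own. The L-cell libraries hold much RNA of other epithelial cells, and the EC-cell libraries hold it in amounts that vary between libraries. The 5 L-cell markers (Gcg, Pyy, Insl5, Nts and Cck) were read in every L-cell library but took 0.0154% to 0.280% of its reads. There 8 colonocyte markers such as Car1 took 3.87% to 6.78%. The same L-cell markers took 0.219% and 1.74% of reads in vehicle EC-cell libraries and 0.115% to 0.985% in EB ones. D-cell markers (Sst and Hhex) took 0.00211% and 0.177% in those vehicle libraries, which thus differed from each other in both lists. In the EC-cell libraries 6 EC markers, Tph1 and Chga among them, took 7.31% and 8.75% of reads in vehicle and 0.804%, 1.10%, 4.66% and 12.3% in EB replicates 1 to 4. EB replicates 1 and 2 stood apart there, with 2.18% and 2.17% of reads on colonocyte markers against 0.270% to 0.681% in the other 4 libraries. Fewer cells of a type and less RNA per cell cannot be told apart in such bulk samples. "L cells" and "EC cells" below mean the libraries with that label.

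In GRCm38.p6, Agtr1a lies on chromosome 13, 30336356 to 30382867, and Chrm3 on chromosome 13, 9875486 to 10361062. Avpr1b lies on chromosome 1, 131599114 to 131612000, Sstr1 on chromosome 12, 58211421 to 58216037, and Sstr5 on chromosome 17, 25489875 to 25497288. How strongly each receptor was read can be set side by side only per gene length, here as RPKM (reads divided by exon length in kilobases and by the library total). In vehicle L cells Vipr1 stood at 32.3 and 40.0 and Sstr1 at 34.3 and 16.7, so these neighbours in the order overlapped. Adra2a followed at 3.08 and 3.79, then Sstr5 at 1.45 and 0.727 and Htr4 at 0.518 and 0.788, again overlapping. Agtr1a stood at 0.0888 and 0.123, Chrm3 at 0.0452 and 0.0109, and Avpr1b had no read. In vehicle EC cells Sstr1 stood highest at 50.6 and 56.3. Sstr5 at 9.73 and 18.5 overlapped Vipr1 at 10.6 and 1.57, which in turn overlapped Htr4 at 2.41 and 5.22 and Adra2a at 0.506 and 5.09. Chrm3 at 0.947 and 0 overlapped Adra2a, Agtr1a stood at 0.169 and 0, and Avpr1b had no read there either. Sstr1 was the one receptor near the top of both lists, and Vipr1 per length was higher in every L-cell library than in any EC-cell library, 32.3 to 41.4 against 1.57 to 12.7. No test was made between the tables, whose libraries also differ in mouse line and depth.

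**Figure D1:**
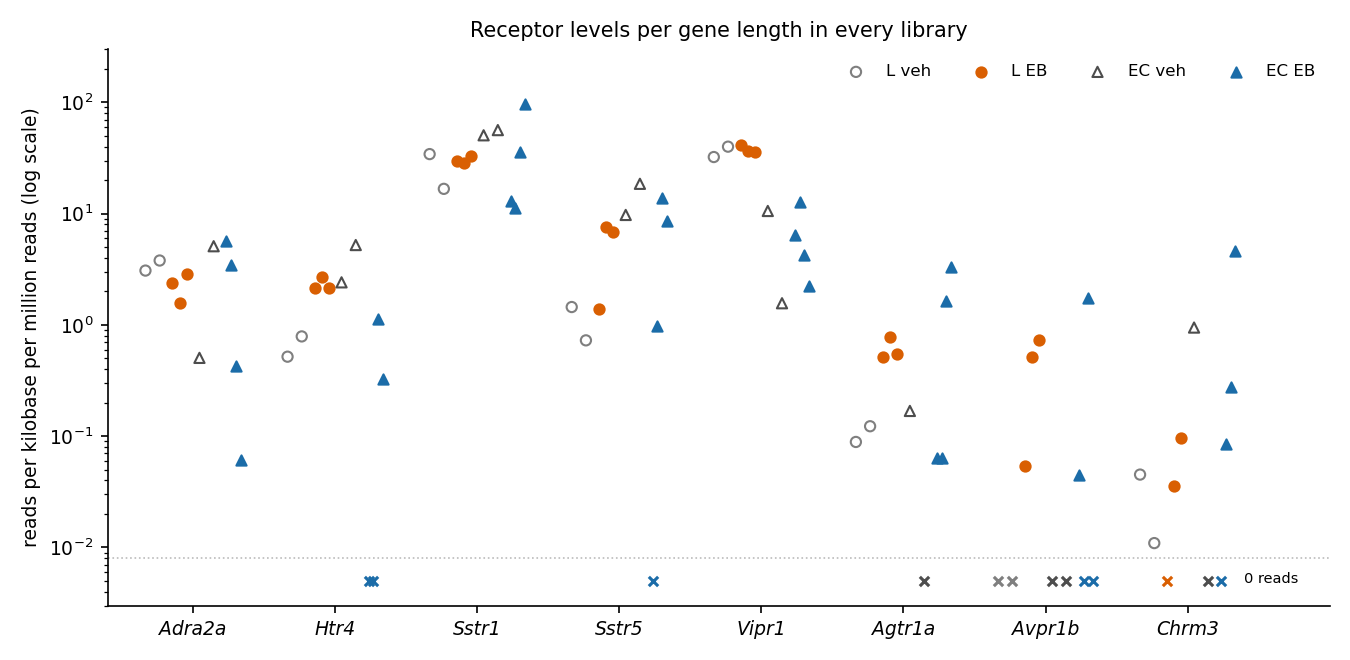
RPKM (reads scaled to exon length and library total, log scale) for the 8 receptor genes in each of the 11 libraries; open symbols are vehicle, filled symbols EB, circles L cells, triangles EC cells, and crosses below the dotted line libraries with 0 reads. Vipr1 and Sstr1 lie highest in L cells, Sstr1 lies highest in vehicle EC cells, and Avpr1b has 0 reads in all 4 vehicle libraries.

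In L cells the comparison asked whether EB changed the transcripts of these receptors. The serotonin receptor gene Htr4 measured 76.6 and 127 under vehicle and 296, 379 and 299.9 under EB. All 3 EB libraries lay above both vehicle libraries, with group means of 102 ± 35.4 (SD, n = 2) and 325 ± 46.7 (SD, n = 3). The log2 fold change on log2(value + 1) was 1.70 ± 0.29 (SE; 95% confidence interval 1.02 to 2.38), with a limma adjusted p (Benjamini-Hochberg over all 16217 genes tested) of 0.120, so Htr4 did not pass the threshold of 0.05. Its adjusted p was 0.196 in edgeR and 1.11e-04 in DESeq2. It was 0.0485 without vehicle replicate 2, with a log2 fold change of 2.06, and 0.0183 with no filter on low values, so the call rested on the tool, the filter and 1 vehicle library. Over all alternatives tried the log2 fold change ran from 1.34 to 2.06 and the adjusted p from 1.11e-04 to 0.569. Htr4 lies on chromosome 18, and 2 other annotated genes overlap it, Gm36316 and Gm18653. Counting by strand is not stated, so reads of overlapping genes cannot be told apart. Those 2 measured at most 3.61 in any L-cell library.

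Agtr1a, for the angiotensin II type 1a receptor, was also higher in every EB library. It measured 7.45 and 11.2 in vehicle against 40.2, 61.6 and 43.4 in EB, from 7 and 10 reads in vehicle and 40, 68 and 48 in EB. The log2 fold change was 2.26 ± 0.54 (95% confidence interval 1.01 to 3.51) at a limma adjusted p of 0.231, and the adjusted p was 0.269 in edgeR and 0.0264 in DESeq2. Avpr1b, for the vasopressin V1b receptor best known from pituitary corticotrophs, had no read in either vehicle library and measured 6.03, 58.9 and 84.0 in EB. The EB mean was 49.6 ± 39.8 (SD, n = 3). Against the limit of 1.64, or 3 reads over both vehicle libraries, it was at least 30.3-fold higher. That bound ran from 14.8-fold to 43.6-fold with a library left out, and it covers counting error only, since reads without molecular identifiers are not independent molecules. The limma adjusted p of Avpr1b was 0.231, against 0.269 in edgeR and 0.00180 in DESeq2. Both Agtr1a and Avpr1b were kept for testing only because of their EB values.

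Of the somatostatin receptors, Sstr5 measured 119 and 65.0 under vehicle and 105, 592 and 531 under EB. EB replicates 2 and 3 were high, and EB replicate 1 lay between the vehicle libraries, so the groups overlapped. Its log2 fold change was 1.85 ± 0.71 (95% confidence interval 0.21 to 3.50) at a limma adjusted p of 0.378, and the adjusted p was 0.337 in edgeR and 0.0254 in DESeq2. Sstr1 measured 2112 and 1119 under vehicle and 1699.7, 1657 and 1897 under EB, with every EB value inside the vehicle range. Its log2 fold change was 0.19 ± 0.25, with a 95% confidence interval of -0.40 to 0.77 and a limma adjusted p of 0.831. That of -0.27 without vehicle replicate 2 had the opposite sign.

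Adra2a, for the alpha-2A adrenergic receptor, was the one receptor with lower values in all EB libraries. It measured 448 and 599.6 under vehicle and 321, 216 and 393 under EB, group means of 524 ± 107 (SD, n = 2) and 310.0 ± 88.7 (SD, n = 3). The log2 fold change was -0.78 ± 0.29 (95% confidence interval -1.45 to -0.11), with an adjusted p of 0.363 in limma, 0.382 in edgeR and 0.228 in DESeq2. Vipr1, for the VPAC1 receptor of VIP on epithelial cells, measured 5634 and 7591 under vehicle and 6671, 6077 and 5885 under EB. All EB values lay inside the vehicle range, with a log2 fold change of -0.08 ± 0.16, a 95% confidence interval of -0.44 to 0.29 and a limma adjusted p of 0.901. Chrm3, for the muscarinic M3 receptor, measured 8.51 and 2.24 under vehicle and 0, 6.34 and 17.2 under EB, under the filter of at least 10 in 2 libraries, and was not tested.

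**Figure D2:**
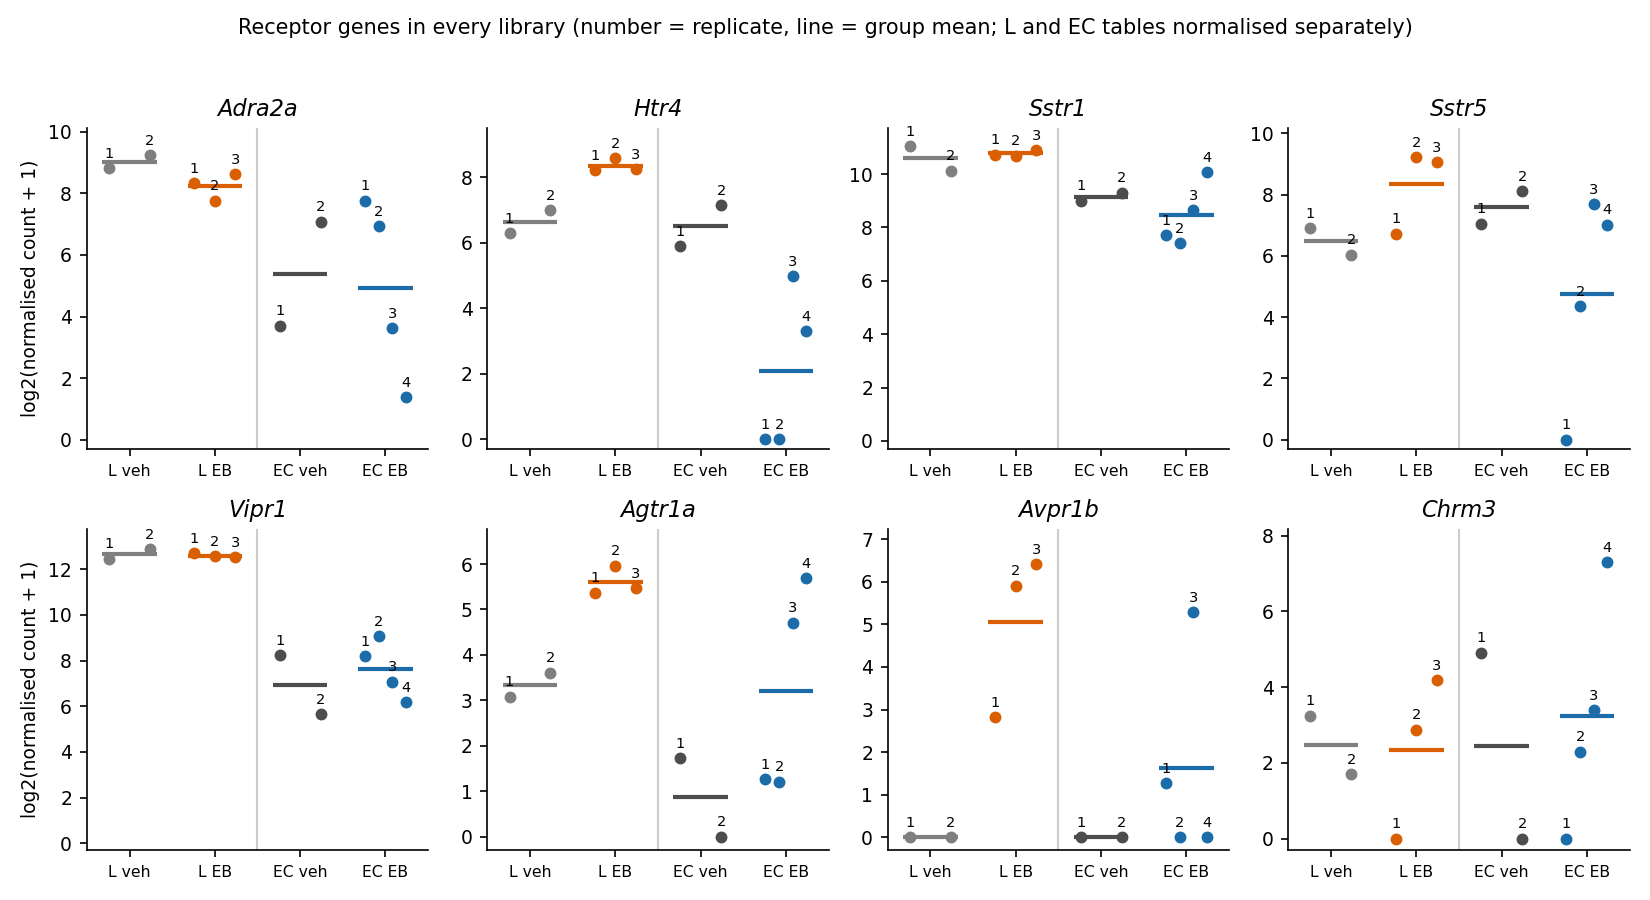
Normalised counts of the 8 receptor genes as log2(value + 1) in each library, with the replicate number above each point and the group mean of the log2 values as a line. In L cells all 3 EB points lie above both vehicle points for Htr4, Agtr1a and Avpr1b and below them for Adra2a, while in EC cells all 4 EB points of Htr4 lie below both vehicle points.

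In limma 0 of the 7 receptors tested in L cells passed, against 0.0247% of all genes tested, while edgeR called 0, against 0% of all genes. DESeq2 called 4 (Htr4, Agtr1a, Avpr1b and Sstr5), against 3.2% of all genes. At an unadjusted limma p under 0.05 there were 5 in all, against 11.6% of all genes. Of these there were 4 with higher values in EB, where 7.34% of all genes were counted so, and 1 with lower values, where 4.22% were. EB and vehicle values were separated upwards for 3 of the 7, against 14.3% of all genes, and downwards for 1, against 14%. The median log2 fold change of the 7 was 1.70, against -0.0022 for all genes tested. These counts and the median include Agtr1a and Avpr1b, whose EB values alone kept them in.

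Markers of endocrine and other cells differed between the same L-cell groups. The summed value of 8 endocrine genes (Neurod1, Pax6, Insm1, Scg2, Scg3, Scn3a, Fev and Pcsk1) was 860 and 512 under vehicle and 811, 1624 and 2072 under EB. The L-cell markers themselves took 0.0409% and 0.0154% of reads under vehicle and 0.0566%, 0.172% and 0.280% under EB. In EB replicate 1, where the endocrine sum lay inside the vehicle range, Sstr5 also lay inside its vehicle range, while Htr4 and Agtr1a were above theirs. The sums of L-cell, EC-cell and D-cell markers in that library, 15731, 1302 and 278, were also above both vehicle libraries, which held at most 12312, 615 and 213. As a percentage of the endocrine sum Htr4 measured 8.91% and 24.7% under vehicle and 36.4%, 23.3% and 14.5% under EB, which overlap. Agtr1a overlapped too, at 0.866% and 2.19% against 4.96%, 3.79% and 2.09%. Sstr1 did not overlap on this scale, at 246% and 218% under vehicle and 210%, 102% and 91.6% under EB. Nor did Adra2a, at 52.1% and 117% under vehicle and 39.5%, 13.3% and 18.97% under EB, so it stayed lower in every EB library. Avpr1b stayed higher in EB, at 0% in both vehicle libraries against 0.743%, 3.63% and 4.06%. Sstr5, Vipr1 and Chrm3 overlapped on the endocrine scale, whose divisor was itself higher in EB replicates 2 and 3. The summed value of the 8 colonocyte markers was 2042550 and 1818190 under vehicle and 1181000, 1257820 and 1095650 under EB, lower in all 3 as Adra2a was. Per 100000 of that sum Adra2a measured 21.9 and 33.0 under vehicle and 27.2, 17.2 and 35.9 under EB, which overlap. On the same scale Vipr1 did not overlap, at 276 and 418 under vehicle and 565, 483 and 537 under EB. Nor did Htr4, at 3.75 and 6.97 against 25.0, 30.1 and 27.4. Sstr1, at 103 and 61.5 against 144, 132 and 173, was also higher in every EB library on it, as were Sstr5, Agtr1a and Avpr1b. Only Adra2a and Chrm3 overlapped on this scale, whose divisor was itself lower in EB. Neuron and glia markers, 8 genes, summed to 30.8 and 20.2 under vehicle and 79.4, 89.7 and 134 under EB, at most 0.000473% of reads. EC-cell markers took 0.00204% and 0.000983% under vehicle and 0.00468%, 0.0200% and 0.0216% under EB. Stromal and smooth muscle markers, also 8 genes, took 0.000625% and 0.0229% in vehicle and 0.000143% to 0.000282% in EB. Goblet cell markers, 6 genes such as Muc2, took 0.545% and 1.12% in vehicle and 1.13%, 2.30% and 1.77% in EB. Immune markers took at most 0.00321% and tuft cell markers at most 0.000589% in any L-cell library. The part of these markers in the receptor values was not tested.

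**Figure D3:**
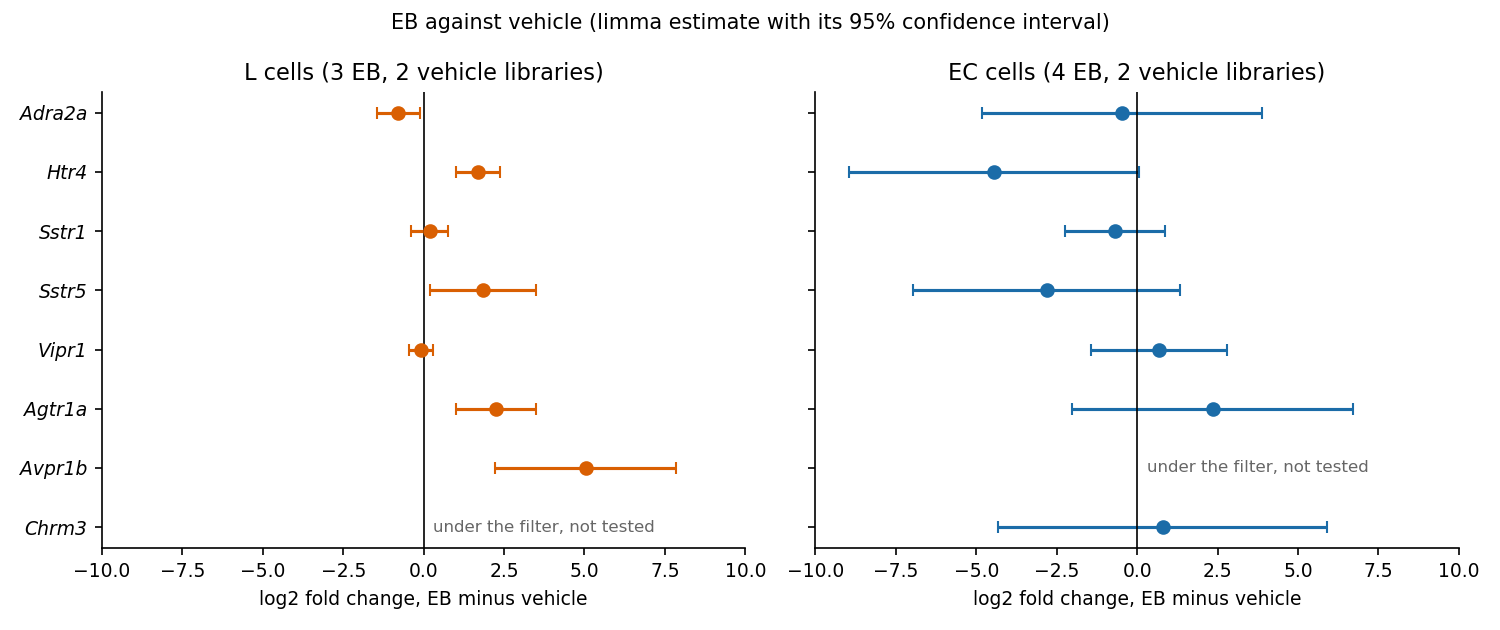
Log2 fold change of EB against vehicle, on log2(normalised count + 1), with its 95% confidence interval from limma, for L cells (left) and EC cells (right). L-cell intervals are narrow for Vipr1 (-0.44 to 0.29). Before adjustment they lie above 0 for Htr4, Agtr1a, Avpr1b and Sstr5 and below 0 for Adra2a (-1.45 to -0.11). The L-cell estimate for Avpr1b depends on the pseudocount because its vehicle libraries had 0 reads. EC-cell intervals all include 0, and Avpr1b was not tested there.

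In EC cells the same comparison met a wider spread between EB libraries. Htr4 measured 58.3 and 140.0 under vehicle and 0, 0, 30.2 and 8.80 under EB replicates 1 to 4. All 4 EB libraries lay below both vehicle libraries, the opposite of L cells, and the 0 reads of EB replicates 1 and 2 allow values of up to 4.21 and 3.91. The overlapping gene Gm36316 measured 9.26 in vehicle replicate 1 and 10.4 in EB replicate 3 and had no read elsewhere. The log2 fold change of Htr4 was -4.45 ± 2.08 (95% confidence interval -8.97 to 0.07), at a limma adjusted p of 0.905, or -2.39 without EB replicates 1 and 2. Sstr5 measured 131 and 277 under vehicle and 0, 19.5, 206 and 128 under EB, with EB replicates 1 and 2 far below the other libraries. The difference of -2.82 ± 1.92 (limma adjusted p 0.905) became -0.23 without those libraries. Sstr1 measured 509.7 and 629.6 under vehicle and 209, 169, 398 and 1072 under EB, with EB replicate 4 highest of all 6 libraries. The log2 difference, EB minus vehicle, was -0.69 ± 0.72 at a limma adjusted p of 0.906, and 0.21 without EB replicates 1 and 2.

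Adra2a and Vipr1 were not low in EB replicates 1 and 2. Adra2a measured 12.0 and 135 under vehicle and 216, 121, 11.2 and 1.60 under EB. EB replicates 1 and 2 and vehicle replicate 2 were high, so the groups overlapped (log2 fold change -0.47 ± 2.0, limma adjusted p 0.977). This became -2.90 without EB replicates 1 and 2 and 1.22 without vehicle replicate 2. Vipr1 measured 302 and 49.6 under vehicle and 293, 539, 134 and 71.2 under EB, highest in EB replicate 2. For Vipr1 the log2 fold change was 0.68 ± 0.98 at a limma adjusted p of 0.924, and -0.33 without EB replicates 1 and 2. Summed colonocyte markers in the same libraries were 33529 and 14756 in vehicle and 170814, 159113, 35363 and 24529 in EB, and Vipr1 per 100000 of that sum ran from 172 to 379 in EB and was 900.2 and 336 in vehicle.

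The 3 receptors coupled to Gq had few reads in most EC-cell libraries. Agtr1a measured 2.31 and 0 under vehicle and 1.40, 1.30, 25.1 and 50.4 under EB, so that EB replicates 3 and 4 alone stood above 10. That gave a log2 fold change of 2.35 ± 2.02 at a limma adjusted p of 0.905. It was 4.33 without EB replicates 1 and 2, and 1.49 without vehicle replicate 2. Chrm3 measured 29.2 and 0 under vehicle and 0, 3.91, 9.51 and 157 under EB, with 196 reads in EB replicate 4 and 63 in vehicle replicate 1. For Chrm3 the log2 fold change was 0.79 ± 2.36 at a limma adjusted p of 0.966. Chrm3 overlaps the annotated gene Gm26861, which measured at most 0.864 in any EC-cell library. Avpr1b had 44 reads in EB replicate 3, a value of 38.0, and 1.40 in EB replicate 1, with no read in the other 4 libraries, so it was not tested. EB replicate 3 was also the EC-cell library with reads on the most genes, 30288.

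In limma 0 of the 7 receptors tested in EC cells passed, and 0% of all 15287 genes tested did. Neither edgeR nor DESeq2 called a receptor, against 0% and 0.118% of all genes, and DESeq2 gave no adjusted p for Agtr1a and Chrm3. In limma 0 receptors had an unadjusted limma p under 0.05, against 3.55% of all genes, 2.43% higher and 1.11% lower. All EB libraries lay above both vehicle libraries for 0 of the 7, against 4.98% of all genes. Values below both vehicle libraries in all EB libraries were found for 1 of the 7, Htr4, against 6.3% of all genes. The median log2 fold change of the 7 receptors was -0.47, against -0.07 for all genes. These counts and the median include Htr4, kept for testing by its vehicle values alone, and Agtr1a, kept by EB replicates 3 and 4 alone.

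The summed endocrine list moved with several of these values. It was 5859 and 9069 under vehicle and 1155, 1781, 7097 and 6537 under EB, lowest in the EB libraries where Htr4 and Sstr5 were at or near 0. As a percentage of that sum Sstr5 measured 2.24% and 3.05% under vehicle and 0%, 1.10%, 2.90% and 1.96% under EB. Htr4 measured 0.996% and 1.54% under vehicle and 0%, 0%, 0.426% and 0.135% under EB, below both vehicle libraries also in EB replicates 3 and 4, whose endocrine sums lay inside the vehicle range. Sstr1 measured 8.70% and 6.94% against 18.1%, 9.51%, 5.61% and 16.4%. Goblet cell markers took 1.12% and 0.0140% in vehicle and 0.0185%, 0.0453%, 0.579% and 0.0110% in EB. The part of these markers in the receptor values was not tested.

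**Figure D4:**
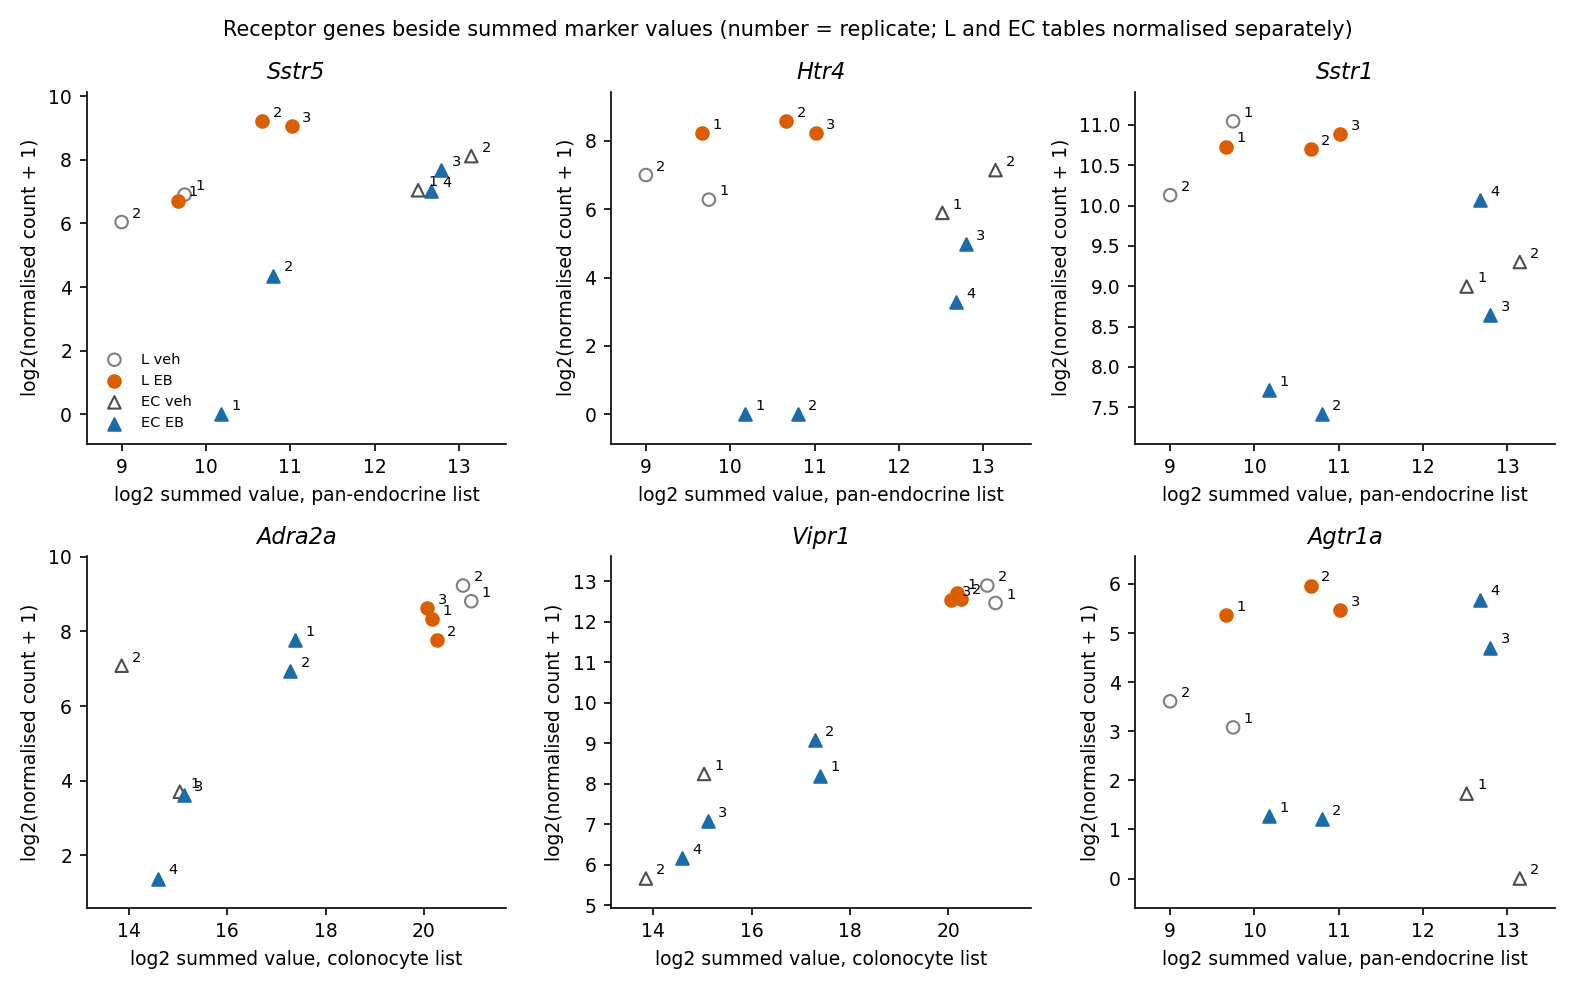
Log2(normalised count + 1) of a receptor against the log2 summed value of a marker list in the same library; the list is endocrine for Sstr5, Htr4, Sstr1 and Agtr1a and colonocyte for Adra2a and Vipr1. Open symbols are vehicle, filled symbols EB, circles L cells, triangles EC cells, and numbers replicates. EC-cell EB replicates 1 and 2 have the lowest endocrine sums of the EC cells (1155 and 1781), 0 reads of Htr4 and the highest colonocyte sums.

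Whether EB acted differently in the 2 cell types was asked as a contrast of the differences within each table, over all 11 libraries and the 13802 genes kept in both. The fit used a single estimate of each gene's spread for both tables, although EC cells spread more widely. For Htr4 the EC-cell minus L-cell difference was -6.15 ± 2.03 in log2 (95% confidence interval -10.61 to -1.69). Its unadjusted limma p was 0.0113 and its adjusted p 0.862. The SE of Htr4 was 2.08 in EC cells alone and 0.29 in L cells, so this interval and p may be too narrow and too low. The Htr4 difference was -4.09 without EC-cell EB replicates 1 and 2, and its adjusted p was no lower than 0.143 in any alternative. The difference was -4.67 ± 2.60 for Sstr5, with a limma adjusted p of 0.862, and -2.08 without EC-cell EB replicates 1 and 2 or -3.08 without EB replicate 1 alone. For Agtr1a it was 0.09 ± 2.05 (95% confidence interval -4.42 to 4.61), and 2.07 without EC-cell EB replicates 1 and 2. Htr4 and Agtr1a were each kept for testing in a table by the values of a single group, as given above. Of the 6 receptors kept in both tables limma called 0, as for 0% of all genes, and 1 (Htr4) had an unadjusted p under 0.05, against 4.56% of all genes. Its EB effect was the lower one in EC cells, as for 2.38% of all genes, while 0 receptors had a higher one at that p, against 2.18%.

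Promoters are shown for Adra2a and Vipr1, the pair whose values in EC cells were not low in EB replicates 1 and 2, the libraries with most colonocyte transcripts. RefSeq promoter sequences (build GRCm38.p6, the assembly of mm10) were at hand for 3 of the 8 genes, each 250 bases before to 50 after the start of the gene, and the sequences are given 5′ to 3′ on the strand of the gene. The letters searched on both strands were the estrogen response element (GGTCA, 3 bases of any kind, then TGACC), its arm GGTCA alone, which lies inside it, the TATA box TATAAA and the GC box GGGCGG. Capitals mark the matches.
Adra2a, chr19:54045009-54045308, plus strand: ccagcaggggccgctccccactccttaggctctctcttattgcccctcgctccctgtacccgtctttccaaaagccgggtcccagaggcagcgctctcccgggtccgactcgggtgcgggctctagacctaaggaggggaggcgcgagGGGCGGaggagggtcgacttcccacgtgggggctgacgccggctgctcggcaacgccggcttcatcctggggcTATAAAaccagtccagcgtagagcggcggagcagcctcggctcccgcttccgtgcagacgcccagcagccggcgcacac
Vipr1, chr9:121642466-121642765, plus strand: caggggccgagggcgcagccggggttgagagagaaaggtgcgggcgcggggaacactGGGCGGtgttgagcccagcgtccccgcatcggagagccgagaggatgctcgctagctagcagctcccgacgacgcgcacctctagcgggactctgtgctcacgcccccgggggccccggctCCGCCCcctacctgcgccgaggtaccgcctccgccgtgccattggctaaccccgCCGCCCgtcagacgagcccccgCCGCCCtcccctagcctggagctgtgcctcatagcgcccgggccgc
The Adra2a window held 1 TATA box, its first base 29 before the start, and 1 GC box, and the Vipr1 window held 4 GC boxes and no TATA box. Neither window held the response element or its arm as written. Of 32851 promoters of this length 0.0700% held the whole element, 40.5% the arm, 13.6% the TATA box and 35.7% the GC box. Bases G and C made up 68.7% of the Adra2a window and 73.7% of the Vipr1 window, against a median of 52.7% over all promoters. The genes themselves span chromosome 19, 54045259 to 54048982, and chromosome 9, 121642716 to 121672954.

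The other genes of the same receptor families were mostly near 0. Of 36 such genes 11 passed the filter in L cells and 6 in EC cells, and 0 of them passed limma in either table. The muscarinic M1 gene Chrm1 measured 84.0 and 249 in vehicle L cells and 71.4, 230.1 and 176 in EB and at most 25.0 in any EC-cell library. Vipr2, the other VIP receptor gene, lay between 13.1 and 113 in L cells, with a log2 fold change of -1.15 ± 0.73 (limma adjusted p 0.588). Sstr3 lay between 1.30 and 186 in EC cells. In L cells Sstr3 had 0 and 3.19 under vehicle and 14.1, 56.9 and 73.4 in the EB libraries in order of size, at a limma adjusted p of 0.229. Avpr1a, a vasopressin receptor gene, had no read in vehicle L cells and 2.01, 16.3 and 30.8 in EB in order of size, at a limma adjusted p of 0.369. Both were kept for testing in L cells by their EB values alone, and both are given here after their values were seen. Sstr2 had 21.3 to 63.2 in L cells against 0 to 25.3 in EC cells. Agtr2 and Agtr1b, the other angiotensin receptor genes, reached at most 6.32 and 14.6 in L cells, and Htr1b, an inhibitory serotonin receptor gene, at most 1.12 there against 115 in EC cells.

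Genes that make the ligands were read in the same libraries. Sst, the somatostatin gene and itself a D-cell marker, measured 180 and 88.5 in vehicle L cells and 220.1, 1907 and 1720.1 in EB. That is a log2 fold change of 2.82 ± 0.86 (limma adjusted p 0.286). Agt, for the angiotensin precursor, measured 168 and 358 in vehicle L cells and 213, 609 and 492 in EB, with overlapping groups. In EC cells Agt measured 347 and 183 under vehicle and 0, 10.4, 360.4 and 242 under EB, again near 0 in EB replicates 1 and 2. Of 17 ligand genes 6 passed the filter in each table. In limma 0 of them passed in either, against 0.0247% of all genes in L cells and 0% in EC cells. At an unadjusted limma p under 0.05 there were 2 in L cells, both higher in EB as for 7.34% of all genes. In EC cells there were 0, against 3.55% in both directions.

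Signalling genes downstream of these receptors did not pass limma in L cells, where 0.0247% of all genes did. There 0 of 10 G protein alpha subunits, 0 of 18 genes of the cyclic AMP arm, 0 of 10 of the calcium arm and 0 of 10 of receptor desensitisation were called. Counts at an unadjusted p under 0.05 with higher values in EB were 2, 3, 1 and 3, against 7.34% of all genes, and 0 had lower values at that p, against 4.22%. Gna14, for an alpha subunit of the Gq family, measured 632 and 606 under vehicle and 1539, 1601 and 1140.1 under EB. That is a log2 fold change of 1.19 ± 0.19 (limma adjusted p 0.106). Prkacb, a catalytic subunit of protein kinase A, measured 298 and 462 under vehicle and 1054, 1116 and 867 under EB. Its log2 fold change was 1.44 ± 0.23, at an equal adjusted p. Itpr1, an IP3-gated calcium channel gene, measured 431 and 994 under vehicle and 1103, 4073 and 2379 under EB (1.75 ± 0.54, limma adjusted p 0.286). The median log2 fold change was -0.0018 for G protein subunits, 0.35 for the cyclic AMP arm, 0.017 for the calcium arm and 0.16 for desensitisation, against -0.0022 for all genes. In EC cells 0 of 8, 0 of 18, 0 of 9 and 0 of 10 were called, against 0% of all genes. At an unadjusted p under 0.05 there 1 G protein gene was lower, and in the cyclic AMP arm 1 was higher and 1 lower, against 2.43% of all genes higher and 1.11% lower. Prkar1b, a regulatory subunit of protein kinase A, measured 446 and 855 in vehicle EC cells and 2.81, 39.1, 349 and 238 in EB, below both in all 4, with a log2 fold change of -3.37 ± 1.49 and a limma adjusted p of 0.905. Gna11, another Gq family gene, measured 711 and 633 in vehicle EC cells and 3052, 2193, 1041 and 793 in EB.

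The genes whose profiles lay closest to each receptor were sought among 9634 genes with a mean of at least 50 in both tables. The measure was the mean absolute difference over 11 libraries of log2(value + 1) after centring each gene within each table. Htr4 lay closest to Foxa2, a transcription factor gene of endoderm, at 0.375, against a median of 1.75 over all genes searched. The closest gene lies below that median by the way it is chosen. Foxa2 was likewise at 0 reads in EC-cell EB replicates 1 and 2, values that entered the choice. For Sstr5 the closest were Kit at 0.394 and Hap1 at 0.398, for Agtr1a Vav1 at 0.458 and Trf, the transferrin gene, at 0.529. Adra2a lay closest to Rxra, a retinoid X receptor gene, at 0.547 and Slc25a42 at 0.574, Vipr1 to Nfxl1 at 0.201 and Rap1gds1 at 0.202, and Sstr1 to 4632404H12Rik at 0.161 and Seh1l at 0.179. Among the 8 receptors themselves the pairs with the smallest difference were Sstr1 with Vipr1 at 1.11 and Htr4 with Sstr5 at 1.21. The value of 1.11 was above the median over all genes searched, 0.719 for Sstr1 and 0.790 for Vipr1, so those profiles were not especially alike. The pair with the largest difference was Adra2a with Chrm3 at 3.05. Chrm3 in L cells and Avpr1b in EC cells were under the filter.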

How the data were processed

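RNA of isolated colon cells was turned into full-length cDNA with a SMART-Seq HT kit and into libraries with Nextera XT, per the labels' protocols. The submitters' processing notes name mm10 as the build and list STAR, featureCounts and DESeq2, giving no versions. What the authors deposited is a signal for each gene in each library, namely a normalised count, with L cells and EC cells normalised in separate tables. Values above 0 were whole multiples of a step per library to within 0.001 of a read, so reads were recovered from them. Columns of other samples numbered 0.

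The 8 receptors and all gene lists were chosen with earlier results of these data known. Genes that reached 10 in 2 libraries of a table were tested on log2(value + 1) using limma's trended variance (limma 3.58.1, R 4.3.3), a scale that understates changes of low genes. Calls were made at a Benjamini-Hochberg adjusted p under 0.05 over all genes tested. edgeR 4.0.16 and DESeq2 1.42.0 were run on recovered reads. The scripts were tested on simulated data. The text names all 8 receptors, up to 4 genes per further list with a mean of at least 50 by the smallest unadjusted p, and for each receptor tested in both tables the 2 genes of closest profile. A few others are given by range, and some genes that this rule names are not reported here. Lists were other receptors of the same families, ligands, G protein subunits, cyclic AMP, calcium and desensitisation genes, and cell type markers. Limits for 0 reads stand for 3 reads. Exon lengths came from GENCODE M21 and coordinates from RefSeq. Alternatives were other pseudocounts and filters, TMM factors, edgeR, DESeq2, a replicate block and libraries left out.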

Additional observations from a re-analysis of the deposited data

Results flagged for a closer look

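Among the 4 EC-cell EB libraries 1 library stood far from the rest for some genes, by the gap to its nearest neighbour divided by the range of the group. For normally distributed values this ratio passes Dixon's 95% critical value by chance in about 1 of 20 groups. It was taken here on normalised counts, some of them 0, so that rate need not hold. Of the 8 receptors 2 passed the critical value and of 20 other genes looked at 1 did. For Avpr1b the ratio was 0.963, from 38.0 in replicate 3 against at most 1.40 in the others. Replicate 3 also had reads on 30288 genes, against 16014 to 17110 in the other EB libraries. For Chrm3 it was 0.939, from 157 in replicate 4 against at most 9.51. For Prkca, a protein kinase C gene, it was 0.882, from 1030.4 in replicate 1 against 236, 158 and 261.

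Among the receptors and list genes looked at, 2 had EB libraries on opposite sides of vehicle in the 2 cell types. In L cells 14.3% of all genes tested had every EB library above vehicle, and 14% had every one below. In EC cells 4.98% and 6.3% did so. The share of all genes on opposite sides in the 2 cell types was not counted. For Htr4 the EB effect in EC cells minus that in L cells was -6.15 in log2 (limma adjusted p 0.862). For Gna11 it was 1.38 (limma adjusted p 0.862), with 22175 and 21258 under vehicle and 18035, 19378 and 19828 under EB in L cells. Neither difference passed the test.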

How the results depend on the processing

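With no filter on low values limma called 139 genes in L cells, 1 of them a receptor (Htr4). On recovered reads edgeR called 0 genes there and DESeq2 519, 4 of them receptors, and DESeq2 called 15 genes in EC cells. Libraries of equal number correlated in their deviations by 0.157 and 0.148 in L cells and by 0.036 and 0.0069 in EC cells, over 2 pairs each, so the numbers were not taken to pair libraries. With the replicate block limma called 56 genes in L cells and 24 in EC cells. EB replicate 3 of L cells and EB replicates 3 and 4 of EC cells have no vehicle library of equal number. Under the block they therefore added nothing to the estimated EB effect, which in EC cells came from EB replicates 1 and 2 alone against vehicle. Log2 fold changes of opposite sign under the block were 1.95 for Adra2a and -1.31 for Chrm3 in EC cells and -1.95 for Agtr1a in the difference between cell types. Adra2a in EC cells was 0.26 in edgeR and 0.26 in DESeq2, and the Agtr1a difference was -0.43 at a pseudocount of 4. Without EC-cell EB replicates 1 and 2, signs turned for Sstr1 (0.21) and Vipr1 (-0.33) in EC cells and for the differences of Adra2a (-2.12), Sstr1 (0.020) and Vipr1 (-0.25). The cause of these changes was not tested.

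With 1 library left out, calls ran from 0 to 92 genes and 0 to 1 receptor in L cells, from 0 to 1 gene in EC cells, and from 0 to 270 for the difference. The highest counts of genes came without vehicle replicate 1 of L cells, of EC cells and of EC cells again, in that order, and L cells without vehicle replicate 2 gave 53. Log2 fold changes that turned sign ran from -0.27 to 0.64 for Sstr1 and from -0.29 to 0.14 for Vipr1 in L cells. In EC cells they ran from -2.16 to 1.22 for Adra2a, from -1.67 to 1.87 for Chrm3 and from -0.61 to 1.97 for Vipr1. In the difference they ran from -1.38 to 2.00 for Adra2a, from -0.77 to 0.96 for Agtr1a and from -0.53 to 2.05 for Vipr1. Htr4 kept its direction under every alternative run, at 1.34 to 2.06 in L cells, -6.52 to -2.39 in EC cells and -8.27 to -4.09 in the difference. edgeR and DESeq2 were not run for the difference. With the block the Sstr5 difference was -6.89 and Agtr1a in EC cells 0.37.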
